A study of Mus musculus with 8 samples.

Results

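The canonical Wnt pathway has a receptor-level amplifier, and 10 of its genes are described here in mouse cells sorted from embryoid bodies. They are the receptors Lgr4, Lgr5 and Lgr6, the secreted ligands Rspo1, Rspo2 and Rspo3, the ubiquitin ligases Znrf3 and Rnf43, and 2 genes that report pathway output, Axin2 and Lef1. The genes were chosen by symbol, with their levels in endocardial and endothelial libraries already known, so their differences between those groups are a description, and the calls counted for them further on support nothing. All 10 were found among the 34536 gene symbols of the count table, and all 10 were among the 13817 genes with enough counts to be tested. The series holds 8 RNA-seq libraries, 4 labelled endocardial (A, C, E and G) and 4 labelled endothelial (B, D, F and H). Embryoid bodies are aggregates of pluripotent stem cells that differentiate in culture, and endocardium is the endothelial lining of the heart. The stem cell line, culture day, sort markers and any treatment are not stated in the labels used here. No label ties a library to a separate culture, so the spread behind each p-value may be technical. Across genes, deviations from the group means correlated at 0.324 to 0.611 between neighbouring letters (A with B, C with D, E with F, G with H). What these libraries share is not known, and the main test takes no account of it.

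Wnt ligands bind Frizzled receptors together with Lrp5 or Lrp6 and stabilise beta-catenin, which then acts on target genes with the DNA-binding factors Lef1, Tcf7, Tcf7l1 and Tcf7l2. Znrf3 and Rnf43 mark Frizzled for removal from the cell surface and so lower the response. R-spondins bind an Lgr receptor and one of these ligases at the same time, which takes the ligase away from the surface and leaves more Frizzled there. Axin2, Znrf3, Rnf43, Lgr5 and Lef1 are themselves known target genes of the pathway in many tissues, Axin2, Znrf3 and Rnf43 as negative feedback. Rspo3 is known to be needed for vessel development in the mouse embryo.

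Start-site sequence is shown for the pathway reporters Axin2 and Lef1 and for Rspo1, the ligand with the lowest fold change, because TCF and LEF factors bind DNA through a core of CTTTG. RefSeq start sites on build GRCm38.p6 were matched by symbol for 6 of the 10 genes (Lgr4, Lgr6, Rspo1, Rnf43, Axin2 and Lef1). Where a gene had several entries, the one nearest its start in GENCODE M21 was used. Lef1 had 4 entries, and the start used was 148 bases from that start. Rnf43 had 2, and the start used was 365 bases away, so its stretch lies inside the gene as given below. The 250 bases before the start are printed 5′ to 3′ on the gene's strand, with CTTTG in capitals where it occurs on either strand. The Axin2 stretch lies on chromosome 11 from 108920099 to 108920348, the Lef1 stretch on chromosome 3 from 131110073 to 131110322 and the Rspo1 stretch on chromosome 4 from 124986180 to 124986429, all on the plus strand.
Axin2: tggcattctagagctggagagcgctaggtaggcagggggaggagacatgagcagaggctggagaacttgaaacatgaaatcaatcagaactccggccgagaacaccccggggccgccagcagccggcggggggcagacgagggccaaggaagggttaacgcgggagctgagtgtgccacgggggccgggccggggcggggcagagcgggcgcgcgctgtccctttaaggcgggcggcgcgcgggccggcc
Lef1: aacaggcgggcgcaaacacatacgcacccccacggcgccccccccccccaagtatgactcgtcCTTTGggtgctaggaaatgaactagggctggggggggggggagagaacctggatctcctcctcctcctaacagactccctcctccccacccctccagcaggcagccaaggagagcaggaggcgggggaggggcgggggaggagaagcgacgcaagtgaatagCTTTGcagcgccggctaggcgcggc
Rspo1: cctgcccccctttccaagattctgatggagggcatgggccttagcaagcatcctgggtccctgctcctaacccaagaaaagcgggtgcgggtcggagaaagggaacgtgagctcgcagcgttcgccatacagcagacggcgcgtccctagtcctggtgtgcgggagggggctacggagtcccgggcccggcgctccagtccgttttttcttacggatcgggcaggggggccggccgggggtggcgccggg
The Lef1 stretch held CTTTG at 2 places, beginning 187 and 25 bases before the start, both on the strand of the gene. The other 5 stretches held it on neither strand. Of all 32851 stretches of this length in the RefSeq table, 48.6% held CTTTG. The longer form CTTTGAT, which contains that core, was in 3.21% of them and in 0 of the 6. A match describes letters in this window only.

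Levels were compared between genes as CPM (counts scaled to a common library total) per kilobase of the longest protein-coding transcript, since longer transcripts give more reads. In the endocardial libraries Rspo3 and Lgr4 stood at the top, at 22.3 ± 8.82 and 20.7 ± 1.96 CPM per kb (SD, n = 4), and their ranges overlapped. Lef1 (8.78 ± 1.17) and Axin2 (6.60 ± 1.01) followed and overlapped each other. Below them came Znrf3 at 3.20 ± 0.476 and Lgr5 at 2.51 ± 0.619 CPM per kb, again with overlapping ranges. The lowest 4 were Rnf43 (0.883 ± 0.0911), Rspo1 (0.805 ± 0.357), Rspo2 (0.558 ± 0.521) and Lgr6 (0.285 ± 0.148), each overlapping the next in this order. In the endothelial libraries Lgr4 was highest at 24.9 ± 1.71 CPM per kb and stood apart from the rest. Axin2 (8.59 ± 2.24), Rspo3 (8.45 ± 4.69) and Lef1 (6.83 ± 1.24) came next, and then Znrf3 (4.30 ± 0.890), Rspo1 (2.81 ± 2.0) and Rspo2 (1.89 ± 1.65), neighbours that overlapped throughout. Rnf43 (0.917 ± 0.257) and Lgr5 (0.911 ± 0.162) overlapped, and Lgr6 was lowest at 0.190 ± 0.0948 CPM per kb, apart from Lgr5.

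**Figure D1:**
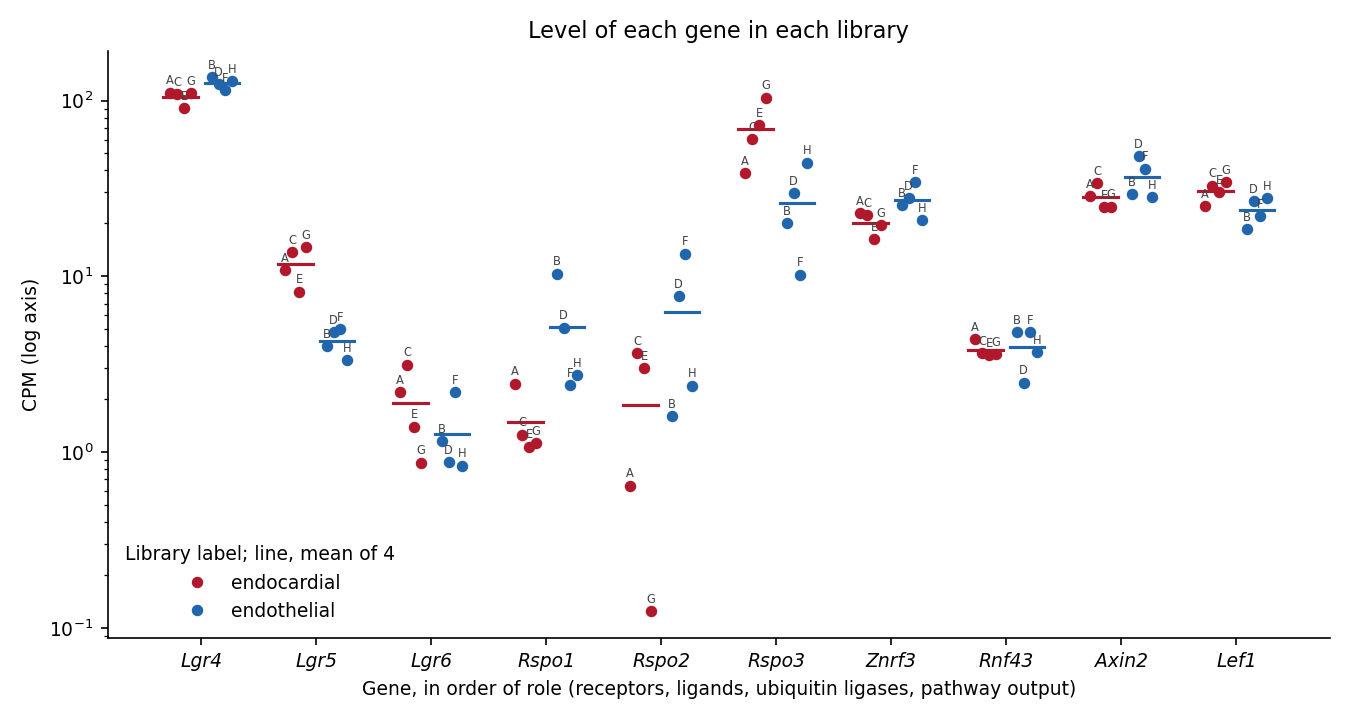
CPM of each of the 10 genes in every library on a log axis, with endocardial libraries in red, endothelial libraries in blue, library letters above the points and a line at each mean of 4. Lgr5 (higher) and Lgr4 (lower) have endocardial points that do not overlap the endothelial ones, while Rspo2 spreads from 0.125 to 3.66 CPM within the endocardial group alone.

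Of the receptors, Lgr5 had more transcripts in the endocardial libraries. Lgr5 (ENSMUSG00000020140.15, GRCm38 chromosome 10, 115450311 to 115587780, minus strand, protein-coding) codes for an R-spondin receptor known from stem cells of several epithelia. It was at 10.8, 13.7, 8.17 and 14.6 CPM in libraries A, C, E and G. In libraries B, D, F and H it was at 4.01, 4.82, 5.01 and 3.35 CPM. Every endocardial library was above every endothelial one, the nearest being E and F. These values rest on 76 to 131 counts per endocardial library and 28 to 48 per endothelial library. The means were 11.8 ± 2.92 and 4.30 ± 0.765 CPM (SD, n = 4), a 2.75-fold difference with a log2 fold change of 1.46 (SE 0.24). In these bulk samples, fewer expressing cells and less RNA per cell cannot be told apart.

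Lgr4 was the main receptor of the family in both groups. Lgr4 (ENSMUSG00000050199.13, chromosome 2, 109917647 to 110014257, plus strand) codes for the broadly expressed member of the family. It was at 110.9, 109.0, 90.1 and 109.7 CPM in A, C, E and G and at 135.3, 124.3, 114.7 and 129.1 CPM in B, D, F and H. Every endothelial library was above every endocardial one, by a small margin, with a log2 fold change of -0.26 (SE 0.10). Lgr6 (ENSMUSG00000042793.13, chromosome 1, 134983301 to 135105276, minus strand) was near the limit of the libraries, with endocardial libraries at 0.873 to 3.14 CPM and endothelial libraries at 0.837 to 2.19 CPM. For Lgr6, endocardial library C lay above the endothelial range, A was level with its top at 2.19 CPM, and E and G lay within it. Its log2 fold change was 0.57 (SE 0.47) by edgeR and 1.21 by limma with sample quality weights.

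The make-up of the receptor family differed with Lgr5. Per length, Lgr4 gave 88.2 ± 1.78% of the summed Lgr level in the endocardial and 95.7 ± 1.13% in the endothelial libraries. Lgr5 gave 8.78 to 12.4% in the endocardial and 2.69 to 4.41% in the endothelial libraries, ranges that did not overlap. The share depends on the length used: per merged exon length the mean Lgr5 share was 5.93% and 1.92%. The summed Lgr level ranged from 19.8 to 24.9 CPM per kb in the endocardial and from 24.1 to 27.8 in the endothelial libraries, which overlapped. Such shares compare genes within a library and do not depend on how libraries were scaled to each other.

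Of the ligands, Rspo3 was higher on average in the endocardial libraries and Rspo1 and Rspo2 were lower, each with ranges that met. Rspo3 (ENSMUSG00000019880.10, chromosome 10, 29452416 to 29535867, minus strand) was at 38.5, 60.2, 72.3 and 104 CPM in A, C, E and G. In B, D, F and H it was at 20.2, 29.6, 10.2 and 44.2 CPM. The 2 groups overlapped only in that endothelial library H was above endocardial library A. The means were 68.6 ± 27.2 and 26.1 ± 14.5 CPM (SD, n = 4), with a log2 fold change of 1.40 (SE 0.43), or 2.65-fold. The spread within each group was wide, since G had more than A and H more than F by a wide margin.

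Rspo1 (ENSMUSG00000028871.7, chromosome 4, 124986430 to 125009099, plus strand) codes for the R-spondin best known for ovary development. It was at 2.45, 1.26, 1.08 and 1.12 CPM in A, C, E and G and at 10.3, 5.11, 2.40 and 2.75 CPM in B, D, F and H. The highest endocardial library, A, lay just above the lowest endothelial one, F. The log2 fold change was -1.81 (SE 0.52), and without library B it was -1.19. Library B also had the highest summed level of mesenchyme markers, 26123 CPM against 3949 to 9923 CPM in the other 7 libraries, and their part in the Rspo1 level was not tested. Col1a1, Col1a2, Col3a1 and Postn gave most of that sum. These genes, Lum, Pdgfra and Tcf21 were highest in B, while Pdgfrb, Twist1 and Prrx1 were not. Library D, second in Rspo1, had a sum of 7502 CPM, and H, with 2.75 CPM of Rspo1, had 9923 CPM.

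Rspo2 (ENSMUSG00000051920.7, chromosome 15, 43020794 to 43170826, minus strand), known for limb and lung development, varied most from library to library. It was at 0.646, 3.66, 3.01 and 0.125 CPM in A, C, E and G, the last from a count of 1, and at 1.60, 7.74, 13.5 and 2.39 CPM in B, D, F and H. Libraries B and H lay within the endocardial range, and D and F lay above it. Within each pair of neighbouring letters, a pairing that no label states, the endothelial library had the higher level. The log2 fold change was -1.72 (SE 0.87), and -1.03 without F. Library F had the highest summed level of pluripotency markers, 1259 CPM against 305.7 to 668.2 CPM in the other libraries, and their part in the Rspo2 level was not tested. Rspo4, the remaining R-spondin, was too low to test, with counts of 0 in C, D and H and at most 10 elsewhere. A count of 0 allowed up to 0.314, 0.438 and 0.359 CPM in those 3 libraries, the value of 3 counts, for counting error only.

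Per length, Rspo3 made up most of the R-spondin transcripts in each endocardial library, 88.4 to 98.0% of the summed level. Its share in the endothelial libraries was 37.7 to 86.6%. In B, Rspo3 gave 50.1% and Rspo1 43.3% of the sum. In F, Rspo2 gave the largest part, 45.9%, and Rspo3 gave 37.7%. The summed R-spondin level was 23.7 ± 8.41 CPM per kb in the endocardial and 13.3 ± 3.32 in the endothelial libraries (SD, n = 4), with ranges of 14.1 to 34.3 and 8.78 to 16.6 that overlapped.

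**Figure D2:**
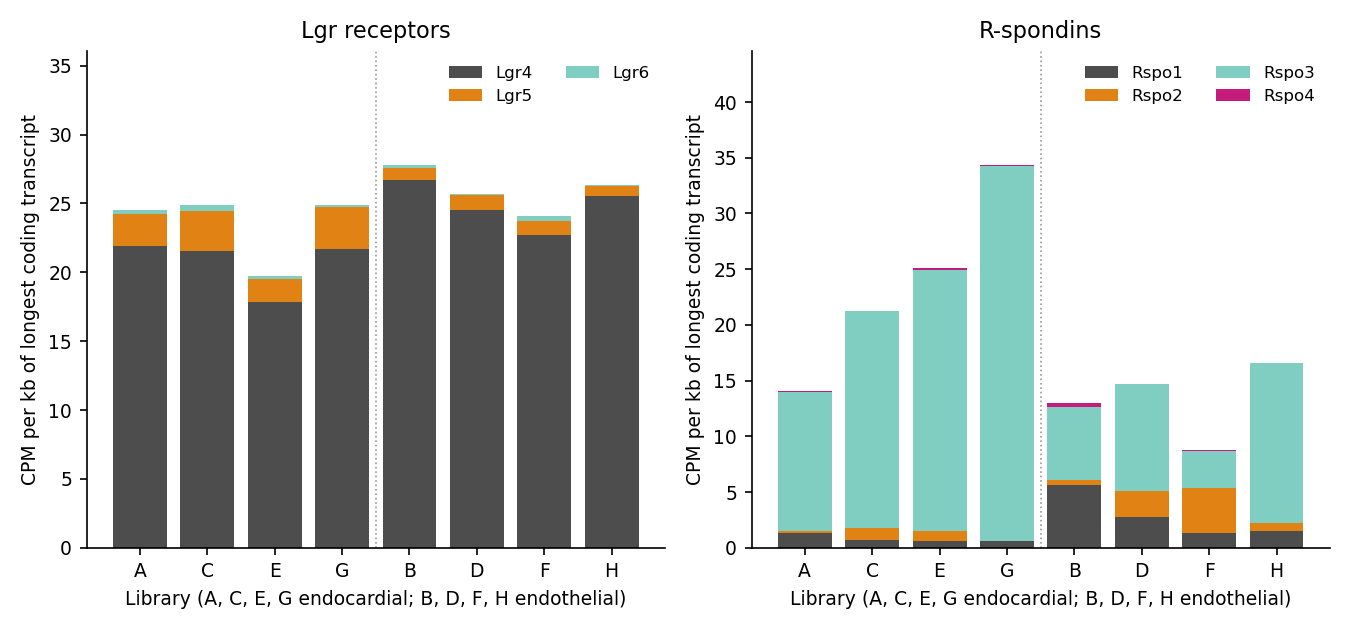
Stacked level of the Lgr receptors (left) and R-spondins (right) in each library, in CPM per kb of the longest coding transcript, with endocardial libraries left of the dotted line. Lgr4 fills most of each receptor bar, and Rspo3 fills at least 88.4% of each endocardial R-spondin bar.

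The ubiquitin ligases had small fold changes. Znrf3 (ENSMUSG00000041961.14, chromosome 11, 5276324 to 5444847, minus strand) was at 22.9, 22.2, 16.2 and 19.6 CPM in A, C, E and G and at 25.5, 27.7, 34.4 and 20.9 CPM in B, D, F and H. Only H lay within the endocardial range, and the log2 fold change was -0.43 (SE 0.17). Rnf43 (ENSMUSG00000034177.15, chromosome 11, 87662722 to 87735539, plus strand) ranged from 3.55 to 4.39 CPM over endocardial and from 2.48 to 4.81 CPM over endothelial libraries. Its log2 fold change of -0.06 (SE 0.28) had no stable sign, being 0.05 without B, 0.02 without F and 0.21 by limma. Per length, Znrf3 gave 78.3 ± 1.97% and 82.3 ± 4.55% of the summed level of the pair in the endocardial and endothelial libraries.

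The genes that report pathway output had fold changes of opposite sign. Axin2 (ENSMUSG00000000142.15, chromosome 11, 108920349 to 108950783, plus strand), a scaffold of the complex that degrades beta-catenin, was at 28.7, 34.0, 24.8 and 25.0 CPM in A, C, E and G. In B, D, F and H it was at 29.4, 48.0, 40.9 and 28.1 CPM, so D and F were above the endocardial range and B and H within it. The log2 fold change was -0.38 (SE 0.19). Lef1 (ENSMUSG00000027985.14, chromosome 3, 131110471 to 131224356, plus strand) was at 25.0, 32.8, 30.2 and 34.3 CPM in A, C, E and G and at 18.5, 26.9, 22.0 and 27.7 CPM in B, D, F and H. Endocardial library A lay within the endothelial range, and the other 3 lay above it. The log2 fold change was 0.37 (SE 0.16), of the opposite sign to that of Axin2, Znrf3 and Rnf43.

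Across the 10 genes, 4 had a log2 fold change above 0 and 6 below, with a median of -0.16 beside 0.01 over all tested genes. By edgeR's quasi-likelihood test adjusted over all tested genes, 1 of the 10 was called higher (Lgr5), beside 1.42% of all tested genes, and 0 were called lower, beside 1.16%. At an unadjusted p under 0.05 there were 3 on each side, beside 5.65% (higher) and 8.99% (lower) of all tested genes. DESeq2 and limma each called 2 higher (Lgr5 and Rspo3) and 1 lower (Rspo1), where DESeq2 called 2.11% and 3.55% of all its genes and limma 2.97% and 4.09%. Libraries of neighbouring letters were also taken as pairs, which no label states. By that fit edgeR called 2 higher (Lgr5 and Rspo3) and 2 lower (Rspo1 and Rspo2) of the 10. Of all 13817 tested genes it called 505 higher and 699 lower. In every such pair Lgr5, Rspo3 and Lef1 were higher in the endocardial library. Lgr4, Rspo1, Rspo2, Znrf3 and Axin2 were lower there in every pair, while Lgr6 and Rnf43 differed in direction between pairs. Lgr5 was not called by edgeR without library C or without library G. The groups did not overlap in 1 gene higher in the endocardial libraries (Lgr5) and in 1 lower (Lgr4), beside 4.42% and 5.33% of all tested genes. Since these genes were picked with the same contrast in view, nothing is read from these counts.

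Partners of the R-spondin and Lgr system, from a list that leaves out the 10 genes, lay mostly below 0. This list and the target and core lists below were written with earlier results of these data known. Nothing is read from their counts. Of 10 listed genes 7 were tested. Of these, 1 was called lower and 0 were called higher by edgeR, beside 1.16% and 1.42% of all tested genes. A negative log2 fold change was found in 6 (47.5% of all tested genes had one), with a list median of -0.76. Fzd5, a Frizzled receptor and thus of the class that Znrf3 and Rnf43 act on, was lower in the endocardial libraries. It was at 11.1, 11.3, 12.5 and 9.98 CPM in A, C, E and G and at 27.7, 30.2, 52.0 and 30.3 CPM in B, D, F and H, with no overlap. Its log2 fold change was -1.64 (SE 0.21, edgeR adjusted p = 0.0033), and it was called in all 15 alternative fits. Its highest level was in library F, which also had the most pluripotency marker transcripts (1259 CPM). Fzd8, a related Frizzled receptor, had a log2 fold change of -1.02 (SE 0.32, edgeR adjusted p = 0.138). Fzd7, from the target list below and named after its result was seen, was more abundant, at 180.6 ± 16.8 (endocardial) and 206.4 ± 22.1 CPM (endothelial). Its log2 fold change was -0.19 (SE 0.12, edgeR adjusted p = 0.519). The lists hold no other Frizzled gene, so no statement is made on the class. Sdc4, a syndecan that can bind R-spondins, had one of -1.32 (SE 0.40, adjusted p = 0.14), with 117 CPM in library F, its highest, and was called lower by DESeq2. The glypican gene Gpc4 had one of -0.76 (SE 0.27, adjusted p = 0.196). Without adjustment, 4 of the 7 were lower and 0 higher at p under 0.05, beside 8.99% and 5.65% of all tested genes. With neighbouring letters as pairs, Fzd5, Sdc4 and Gpc4 were called lower, 3 of the 7, beside 699 of all 13817 tested genes. Markers of pluripotent, neural and epithelial cells were also lower in the endocardial libraries, with list medians of -3.26, -2.23 and -1.90, and their part in these levels was not tested.

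Of 22 further target and feedback genes of the pathway 16 were tested, and edgeR called 0. At an unadjusted p under 0.05, 1 was higher and 3 were lower, beside 5.65% and 8.99% of all tested genes. DESeq2 called 0 and limma 1, Dkk1, lower, where limma called 4.09% of all tested genes lower. With neighbouring letters as pairs, 2 were called higher (Apcdd1 and Myc) and 2 lower (Sp8 and Dkk1), Myc being named after its result was seen. That fit called 505 higher and 699 lower of all 13817 tested genes. The list median was -0.19. Apcdd1, a membrane-bound Wnt inhibitor, had a log2 fold change of 0.50 (SE 0.16, edgeR adjusted p = 0.149). Dkk1, a secreted inhibitor that blocks Lrp5 and Lrp6, had means of 14.7 ± 3.89 (endocardial) and 28.8 ± 13.9 CPM (endothelial; SD, n = 4 each), with 47.8 CPM in library F (adjusted p = 0.19). The transcription factor gene Sp8 (log2 fold change -1.37) and the receptor gene Tnfrsf19 (-0.92) were below 0 without a call, as were Sp5 (-0.76, SE 0.58) and Notum (-0.82, SE 0.42), an enzyme that inactivates Wnt ligands. Nkd1, an inhibitor of Dishevelled, was nearly equal at 30.8 ± 5.71 and 30.3 ± 7.01 CPM, with a log2 fold change of 0.03 (SE 0.19).

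Most core components, from Wnt secretion to the nucleus, had log2 fold changes near 0. All 29 were tested and edgeR called 0. At an unadjusted p under 0.05, 0 were higher and 4 lower, beside 5.65% and 8.99% of all tested genes. DESeq2, limma and the fit with neighbouring letters as pairs each called 1, Apc2, lower. Of all their genes DESeq2 called 3.55% and limma 4.09% lower. The list median was -0.05. Ctnnb1, which codes for beta-catenin, was at 729.9 ± 52.9 and 712.0 ± 52.3 CPM (SD, n = 4), with a log2 fold change of 0.04 (SE 0.12). Among the nuclear partners of beta-catenin, Tcf7 had a log2 fold change of 0.08 (SE 0.17), Tcf7l1 of -0.17 (SE 0.15) and Tcf7l2 of -0.31 (SE 0.14). The smallest p-values in the list belonged to Apc2, a relative of the tumour suppressor Apc (-1.10, SE 0.33, edgeR adjusted p = 0.12), Porcn, which attaches the lipid of Wnt ligands (-0.85, SE 0.28, adjusted p = 0.155), the co-repressor gene Tle4 (-0.49, SE 0.18) and Tcf7l2. Tcf7 stands in both lists, so their counts are not independent.

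**Figure D3:**
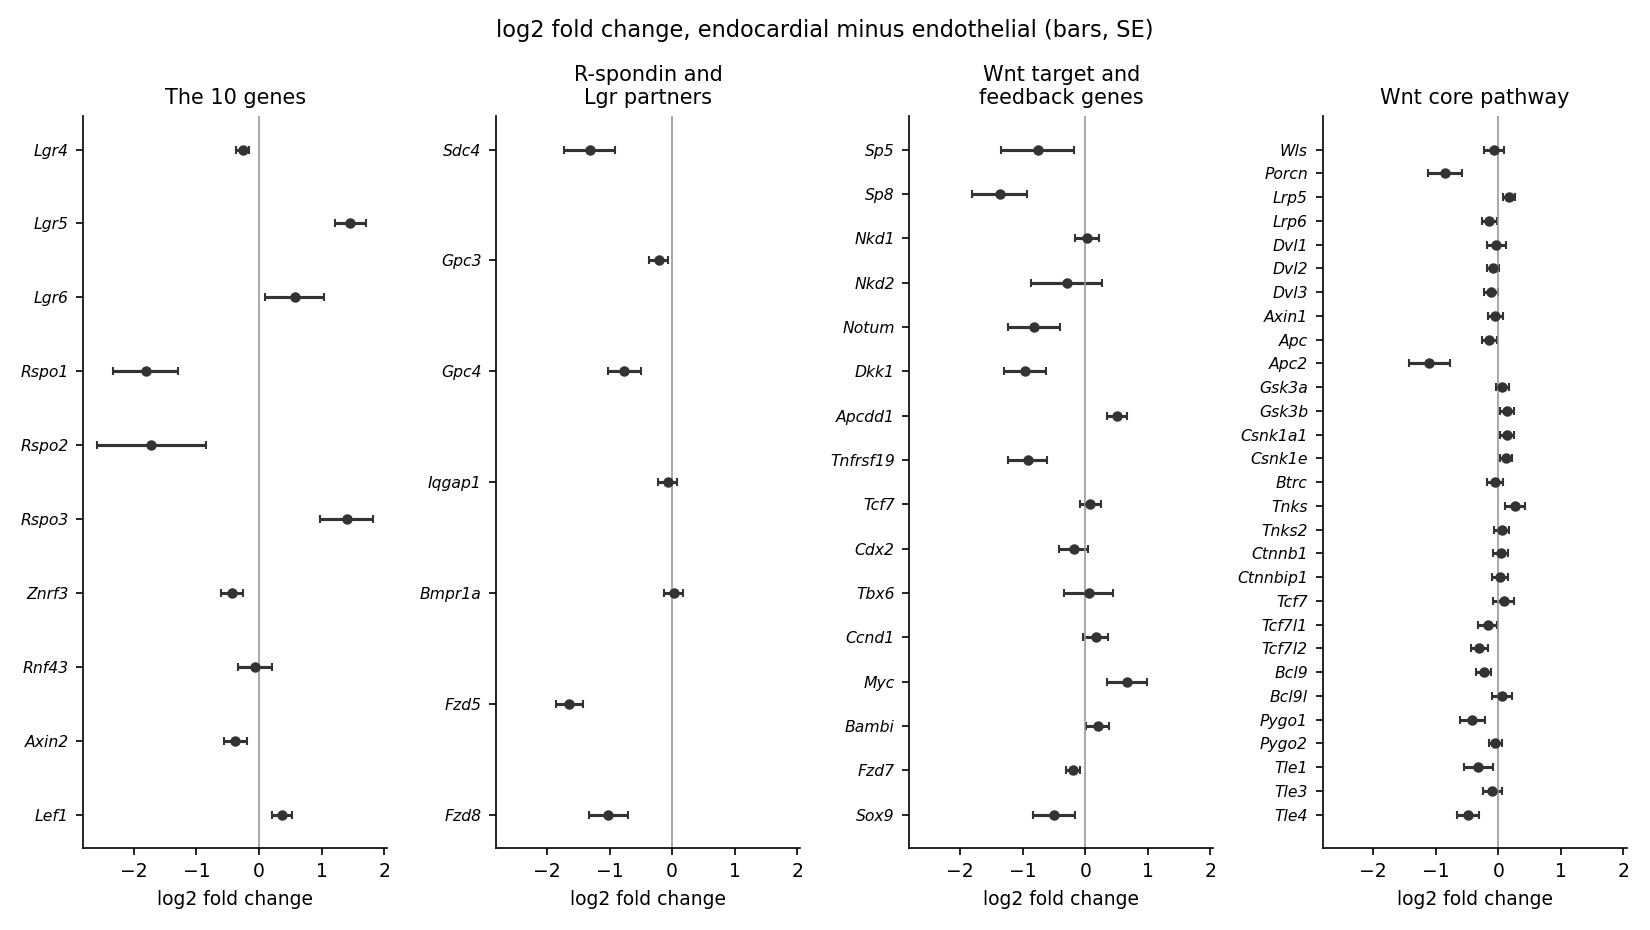
log2 fold change, endocardial minus endothelial, with SE bars, for the 10 genes and for the tested members of the 3 pathway lists, each fitted over all 8 libraries. Lgr5 and Rspo3 stand at 1.46 and 1.40, Rspo1 and Rspo2 at -1.81 and -1.72, and most core components lie near 0.

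Cell type markers differed between the groups and are given as summed CPM of each list. The 12 pan-endothelial markers, led by Kdr and Tek, ranged from 1403 to 1902 CPM in the endocardial and from 435.7 to 883.1 in the endothelial libraries, with 10 called higher and 0 lower by edgeR. The libraries labelled endothelial thus had the lower levels of endothelial markers. The 7 endocardial markers, led by Cdh11 and Hapln1, ranged from 465.7 to 601.6 and from 237.1 to 412.3 CPM (4 called higher). Neural ectoderm markers, led by Nes and Sox2, ranged from 162.7 to 229.1 and from 232.0 to 449.6 CPM (6 of 10 tested called lower). Pluripotency markers, led by Lin28a and Dppa5a, ranged from 305.7 to 453.6 and from 409.9 to 1259 CPM (2 of 10 lower), and epithelial markers, led by Krt8 and Krt18, from 550.8 to 900.4 and from 697.8 to 1283 CPM (2 of 10 lower). The median log2 fold change was -3.26 over the pluripotency and -1.90 over the epithelial markers, with 9 and 7 of 10 lower at an unadjusted p under 0.05. For the neural ectoderm markers it was -2.23, with 9 of 10 lower by that measure. Sox2 stands in both the neural ectoderm and the pluripotency list, so their sums and counts are not independent. Nes, the most abundant neural ectoderm marker, was nearly equal at 148.9 ± 32.8 (endocardial) and 155.3 ± 13.7 CPM (endothelial). Mesenchyme markers, led by Col1a1 and Col1a2, ranged from 4455 to 8626 and from 3949 to 26123 CPM, and heart muscle markers, led by Tnni1 and Tnnt2, from 220.1 to 447.5 and from 154.1 to 327.9 CPM. For these 2 lists edgeR called 0 genes, with 0 mesenchyme and 4 heart muscle genes at an unadjusted p under 0.05. Primitive streak and paraxial mesoderm markers, led by Dll1 and Eomes, ranged from 17.1 to 21.5 and from 20.4 to 36.0 CPM (1 of 5 tested lower), and endoderm markers, led by Gata6 and Sox17, from 77.5 to 89.0 and from 52.0 to 72.0 CPM (1 of 5 higher, Sox17, which endothelium also expresses). Gata6, not called, gave most of the endoderm sum, at 56.4 ± 6.95 (endocardial) and 43.6 ± 16.5 CPM (endothelial). In the same list Foxa2 and Foxa1 had log2 fold changes below 0, of -1.74 (SE 0.59) and -1.34 (SE 0.71). Afp had one of 1.95 (SE 0.85), with 18.6 CPM in library A, its highest. No marker of these lists was at 0 in all 8 libraries.

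The levels of the R-spondin genes lay beside these marker sums as follows, in pairs chosen after the values were seen. The library with the least Rspo3, F at 10.2 CPM, had the lowest pan-endothelial sum (435.7 CPM), and the library with the most, G at 104 CPM, had the highest (1902 CPM). Kdr and Tek, the most abundant genes of that list, were both lowest in F (129.4 and 49.5 CPM). In G, Kdr was highest (791.3 CPM), and Tek was at 321.9 CPM, below H at 334.0 CPM. Within the endocardial group library A, with the least Rspo3, had 1685 CPM, the second highest sum. Lgr5 was also highest in G (14.6 CPM) and, among endocardial libraries, lowest in E (8.17 CPM), which had the lowest pan-endothelial sum of that group (1403 CPM). Among the endothelial libraries Lgr5 was highest in F, where that sum was lowest. The markers of the sum differed in order. Among endothelial libraries Pecam1 (108.7 CPM), Eng and Emcn were highest in F, Kdr, Tek and Cdh5 were lowest there, and the others lay between. Among endocardial libraries Kdr, Tek, Cdh5, Flt1 and Esam were lowest in E, Erg, Eng and Emcn were highest there, and the others lay between. The part of other cells in these levels was not tested.

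**Figure D4:**
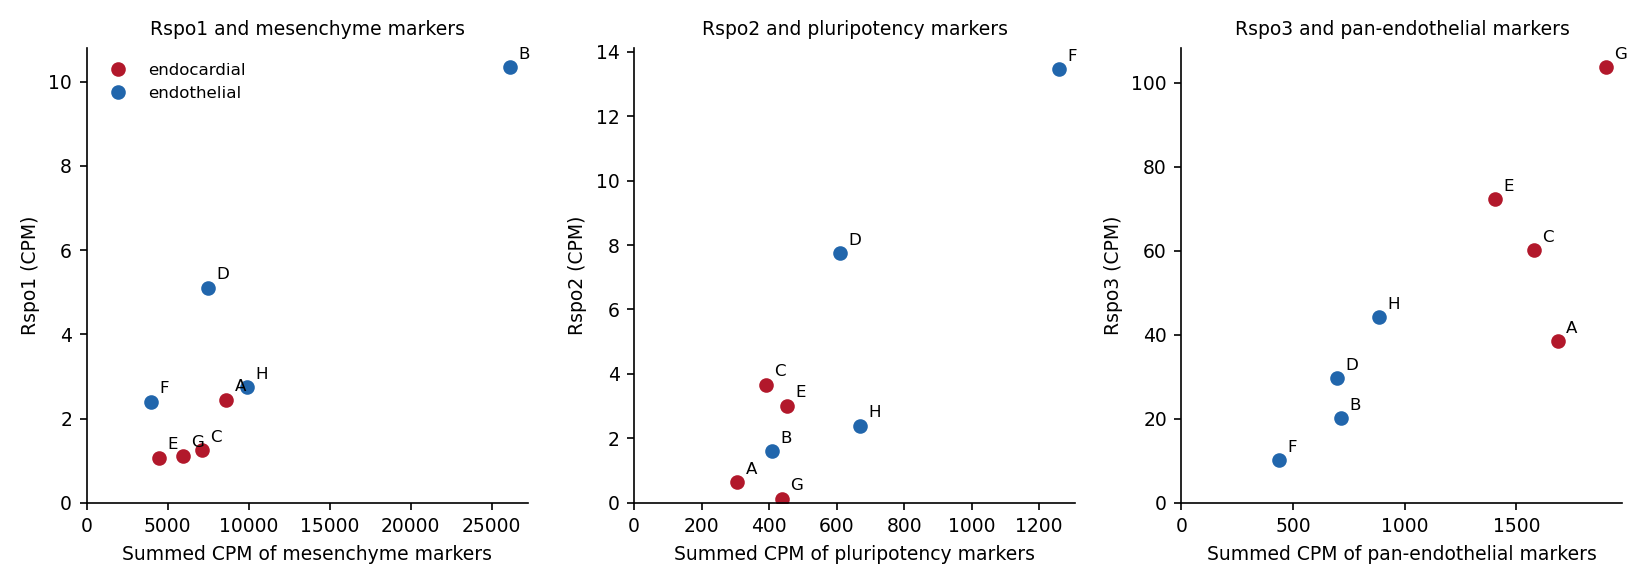
Level of Rspo1, Rspo2 and Rspo3 (CPM) against the summed CPM of mesenchyme, pluripotency and pan-endothelial markers, 1 point per library, endocardial in red and endothelial in blue. Library B stands alone at the top right for Rspo1 (10.3 CPM) and library F for Rspo2 (13.5 CPM). Rspo3 runs from F to G, along a sum led by Kdr and Tek.

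The genes whose pattern was most like each member over the 8 libraries were those with the highest Pearson r of log2 CPM among 10969 tested genes with a mean of at least 5 CPM. With so many candidates and 8 points that share group and depth, high values arise easily, and they are given as a description. For Lgr5 they were Gna13 (r = 0.974), Nrg1 (0.969), the neuregulin that endocardium sends to heart muscle, and Arhgap11a (0.966). Rspo3 was most like Rnd2 (0.988), Rbms1 (0.982) and Rab12 (0.974). Rspo1 was most like Cc2d1a (0.955), Cdon (0.952) and Camk4 (0.946), and Rspo2 most like Tead3 (0.961), Dmd (0.960) and Sema3d (0.959). Lgr4 was nearest to Kcnn3 (0.996), Trp53i13 (0.970) and Slc5a6 (0.961), and Lgr6 nearest to Rad52 (0.963), Nudt13 (0.932) and Adck1 (0.882). For Znrf3 the genes were Pigo (0.989), Emsy (0.976) and Srgap3 (0.973), and for Rnf43 Nfrkb (0.951), Srpr (0.925) and Abhd18 (0.913). Axin2 was most like Fam168a (0.957), Sulf1 (0.956), an enzyme that trims heparan sulfate, and Shd (0.947). Lef1 was most like Fbxo34 (0.981), Spry4 (0.979), an inhibitor of receptor tyrosine kinase signalling, and Arhgap19 (0.975). Of the 10 genes, Lgr6, Rnf43, Rspo1 and Rspo2 were below that mean and were not candidates. None of the other 6 was among the 3 genes nearest to a member.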

How the data were processed

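RNA was purified on a column and made into stranded mRNA libraries, per the labels' protocols. The authors deposited 1 estimated count per symbol and library, rounded to a whole number. Salmon, DESeq2 and mm10 are named, without versions, per the submitters' processing notes. Not given in the sources used here: the transcript set, any filter and the use of strand. By its design, Salmon shares ambiguous reads by a model. In GENCODE M21 (GRCm38, the assembly of mm10) 6 of the 10 genes overlap another gene, and only the one over Lgr5 is in the count table, with 6 counts in all.

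Totals ran from 6677667 to 11369363 per library. Low genes were removed by filterByExpr (minimum count 10, minimum total 15). TMM factors and the robust quasi-likelihood test came from edgeR 4.0.16 under R 4.3.3, endocardial minus endothelial, over all 8 libraries. The p-values were adjusted by Benjamini-Hochberg over 13817 genes, with calls below 0.05. SE is the absolute log2 fold change over the square root of F. CPM is the count relative to the TMM-scaled library total, on the usual common scale, and log2 CPM used a prior count of 2. Lengths were those of the longest protein-coding transcript. Alternatives were DESeq2 1.42.0, limma 3.58.1 (voom, sample weights), upper-quartile and RLE factors, no filter, a stricter filter (1 CPM in 4 libraries, total of 100) and leaving out each library. A fit with neighbouring letters (A with B, C with D, E with F, G with H) as a block was added after the data were seen. No label states that pairing. Across genes, deviations from the group means correlated at 0.555 (A, B), 0.324 (C, D), 0.337 (E, F) and 0.611 (G, H), and at most at 0.0533 for other letters. The tests were tried on simulated data. The members, lists and rules were chosen with earlier results of these data known. Named genes were the members, up to 4 genes of smallest p per pathway list, Rspo4, Ctnnb1, Tcf7, Tcf7l1, Tcf7l2, Sp5, Nkd1, Notum and Dkk1, the 3 genes most like each member and the 2 most abundant of each marker list.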

Additional observations from a re-analysis of the deposited data

Results flagged for a closer look

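Library values were checked in each group of 4 for a highest or lowest value whose gap to the next takes up most of the group's range. The 74 groups came from the marker sums and from 28 tested genes, the members and those named from the pathway lists, and 6 stood out. The genes most like each member and the most abundant markers were not checked. Chance alone gives about 1 in 20 such groups. Lgr4 was lowest in endocardial library E, at 90.1 CPM against 109.0 to 110.9 in the other 3. Rspo1 was highest in endocardial library A, at 2.45 CPM against 1.08 to 1.26, and so was Rnf43, at 4.39 CPM against 3.55 to 3.66. Endothelial library F was highest for Notum, at 11.2 CPM against 3.71 to 4.46, and for Fzd5, at 52.0 CPM against 27.7 to 30.3. The summed neural ectoderm markers were highest among endocardial libraries in C, at 229.1 CPM against 162.7 to 173.9. Nes gave most of that sum, at 189.3 CPM in C against 109.4 to 151.7 in the other 3. Sox2 and Otx2 were highest among endocardial libraries in E, at 27.2 and 19.7 CPM, against 11.5 and 13.0 CPM in C. Of the less abundant genes, Sox1, Pax3 and Zic1 were highest in C and Wnt8b, Fezf2 and Sox3 in E.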

How the results depend on the processing

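The labels join no endocardial library to an endothelial one, and whether neighbouring letters share a culture or sort is not known. With neighbouring letters as a replicate block, edgeR called 505 genes higher and 699 lower, of the 10 genes 2 higher and 2 lower, of the target list 2 higher and 2 lower, of the partner list 3 lower and of the core list 1 lower. Each fold change of the 10 genes then moved by less than 1 SD. Of 140 fold changes of the 10 genes refitted under the other alternatives, 139 moved by less than 1 SD between libraries, the exception being Lgr6 by limma. Leaving out 1 of 4 libraries can hardly move a group mean by that much, so this count says little about stability. The sign of 9 genes was the same in all 15 alternatives, and that of Rnf43 changed in 3. The log2 fold change ranged from 1.35 to 1.59 for Lgr5, from 1.12 to 1.79 for Rspo3 and from -2.17 to -1.19 for Rspo1. The number called higher among the 10 was 2 by DESeq2 and by limma and 0 to 1 when a library was left out, and the number called lower was 1 by both tools. The core list had 1 lower by both tools, the target list 1 lower by limma and the partner list 2 lower by DESeq2. Over all genes DESeq2 called 343 higher and 577 lower and limma 410 and 565, where edgeR called 196 and 160. Leaving out 1 library gave 99 to 230 higher and 35 to 227 lower. The cause of these differences was not tested. Depth limits Lgr6, Rspo1 and Rspo2, for which a library could hold as few as 6, 9 and 1 counts.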
